A study of Mus musculus with 5 samples.

Results

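The genes described here encode 10 enzymes of fatty acid beta-oxidation in the mitochondrial matrix and inner membrane. They were chosen by symbol from the deposited table and not by a rule on their values, though with earlier results of these data known. All 10 were found among 13966 gene symbols. They are 4 acyl-CoA dehydrogenases (Acadvl, Acadl, Acadm, Acads), the 2 subunits of the mitochondrial trifunctional protein (Hadha, Hadhb), the short-chain hydratase Echs1, the short-chain hydroxyacyl-CoA dehydrogenase Hadh, the isomerase Eci1 and the electron transfer flavoprotein dehydrogenase Etfdh. RNA was measured in liver parenchymal cells (hepatocytes) from ICR mice, an outbred stock. The cells had been parted by fluorescence-activated sorting on the signal of a probe that reports fatty acid oxidation (FAO). Control mice gave an FAO-negative and an FAO-positive gate. Mice under bezafibrate, a fibrate drug that activates the PPAR nuclear receptors, gave a negative, a positive and a high-positive gate. The sources used here do not give age, sex, dose or the number of mice, nor do they say whether 1 liver supplied every gate of a treatment. Each of the 5 groups has 1 library, so there is no replicate check, every value describes a library, and treatment cannot be told apart from mouse.

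Beta-oxidation shortens a fatty acyl-CoA by repeated rounds of dehydrogenation, hydration, a further dehydrogenation and thiolysis. The acyl-CoA dehydrogenases divide the first step by chain length, from very long (Acadvl) through long (Acadl) and medium (Acadm) to short chains (Acads). The trifunctional protein carries out the later steps for long chains. For short ones Echs1 carries out the hydration and Hadh the further dehydrogenation. Electrons taken by the acyl-CoA dehydrogenases pass through the electron transfer flavoprotein to Etfdh, which hands them to ubiquinone. Many genes of the pathway are known targets of PPARalpha in liver, the receptor on which fibrates act.

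The upstream sequences of the 10 genes are shown first because they place the members before their RNA levels are compared. Hadha and Hadhb lie head to head on chromosome 5 and are read in opposite directions. Their RefSeq starts are 272 bases apart and the annotated GENCODE genes 85 bases apart, so windows from 250 bases before to 50 bases after each RefSeq start overlap by 228 bases. In such windows the nuclear receptor core motif AGGTCA, searched on both strands, was present in 3 of 10 members, Acadvl, Acadm and Echs1, and in 16.3% of 32851 promoter windows. The direct repeat of AGGNCA with 1 base (N) between the copies, the arrangement bound by PPARs with their partner RXR, was present in 0 of 10 and in 0.381% of all windows. A match is so rare in all windows that 0 of 10 says nothing about the members. Sequence outside the windows was not searched. The GC box GGGCGG was present in 8 of 10 members against 35.7% of all windows, CCAAT in 2 of 10 against 37.4%, and TATAAA in 0 of 10 against 13.6%. The Hadha GC box lies at the same bases as a Hadhb match, within the overlap of their windows, so these members are not separate counts. The palindrome of GCGCA followed directly by TGCGC, bound by nuclear respiratory factor 1, was present in Etfdh alone, against 0.971% of all windows. A match is a run of letters, not a measured binding site, and these data hold no measure of binding. The sequences below are from RefSeq for GRCm38.p6, 5′ to 3′ on the strand of the gene, with the named motif in capitals. The Hadha-Hadhb spacer is printed for its position between the 2 subunit genes, the next 3 for AGGTCA and the last for the palindrome. Bases inside annotated exons were left out, except that the Etfdh window lies within annotated exons and is cut to 30 bases around the match.
Hadhb, GC boxes, chr5:30155163-30155247, plus strand: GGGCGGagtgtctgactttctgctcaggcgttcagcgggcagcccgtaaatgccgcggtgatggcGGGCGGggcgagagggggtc
Acadvl, AGGTCA, chr11:70015429-70015678, minus strand: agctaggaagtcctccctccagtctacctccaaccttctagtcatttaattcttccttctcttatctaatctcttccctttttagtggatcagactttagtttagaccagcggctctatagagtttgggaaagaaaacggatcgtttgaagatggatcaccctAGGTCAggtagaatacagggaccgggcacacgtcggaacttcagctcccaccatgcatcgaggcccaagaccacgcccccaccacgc
Acadm, AGGTCA on the other strand, chr3:153944644-153944893, minus strand: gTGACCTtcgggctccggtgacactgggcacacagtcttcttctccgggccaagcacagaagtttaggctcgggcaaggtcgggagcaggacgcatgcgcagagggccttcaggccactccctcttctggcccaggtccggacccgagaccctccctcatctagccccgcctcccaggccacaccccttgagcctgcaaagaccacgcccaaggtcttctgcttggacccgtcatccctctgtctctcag
Echs1, AGGTCA, chr7:140116477-140116671, minus strand: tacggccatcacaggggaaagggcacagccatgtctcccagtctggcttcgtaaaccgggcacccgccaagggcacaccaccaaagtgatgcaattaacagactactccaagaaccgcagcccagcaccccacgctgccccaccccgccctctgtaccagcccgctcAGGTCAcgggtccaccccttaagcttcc
Etfdh, palindrome, chr3:79628876-79628905, minus strand: tgcttctaggGCGCATGCGCacacgcgaga

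The windows of the 10 members were richer in CpG than most. Their median ratio of observed to expected CpG was 0.628, against 0.384 over all windows, and their median GC content was 61.8% against 52.7%. Acadl had the highest ratio, 0.932 with 34 CpG, and Acadm and Acadvl the lowest, 0.459 and 0.476. These values describe sequence only and were not set against a test.

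Whole reads could be recovered for each library, between 5056884 and 7146578. The 10 members together held 2904 to 10764 of them, or 0.0836% and 0.0883% of reads outside Rn45s in control negative and positive, and 0.168%, 0.148% and 0.164% in the treated negative, positive and high libraries. Rn45s, which gives rise to ribosomal RNA, held 34.8% to 36.3% of all reads in the control libraries and 10.5% to 18.5% in the bezafibrate libraries. Hepatocyte markers fixed for this check were all present, with albumin (Alb) between 23064 and 72188 normalised read counts. Summed markers of macrophages (6 of 10 in the table), endothelium (7 of 8), cholangiocytes (4 of 6) and blood cells (2 of 10) reached at most 7.99, 29.6, 13.1 and 1.44. Stellate cell markers (7 of 8) summed to 103 to 111 in control and 30.9 to 39.8 in bezafibrate libraries. Reln made up 93.4 and 105.8 of these sums in the controls and 28.5 to 29.8 in the treated libraries, while Lrat was at most 1.33 and Dcn at most 2.80. In these bulk libraries fewer cells with an RNA and less of it per cell cannot be told apart.

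Each of the 10 members had its lowest value in a control library and its highest in a bezafibrate library, and for 9 of 10 the highest was the bezafibrate negative library. Acadvl was the exception, with its highest value in bezafibrate high. The shares of all genes with these lowest and highest libraries were not counted, so these counts do not set the members apart. With totals that leave out Rn45s, 4 of 10 members were higher in bezafibrate high than in bezafibrate negative, as were 5739 of all analysed genes. Values below are normalised read counts as deposited, in the order of the 2 control gates (negative, positive) and the 3 bezafibrate gates (negative, positive, high). In all 10 the 3 bezafibrate values lay above the 2 control values, as they did in 35.7% of the 8973 genes analysed (3202 genes). The order is that of the deposited scaling. Relative to albumin, whose RNA was also higher in the bezafibrate libraries, it does not hold for every member, nor for most genes, as given below.

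**Figure D1:**
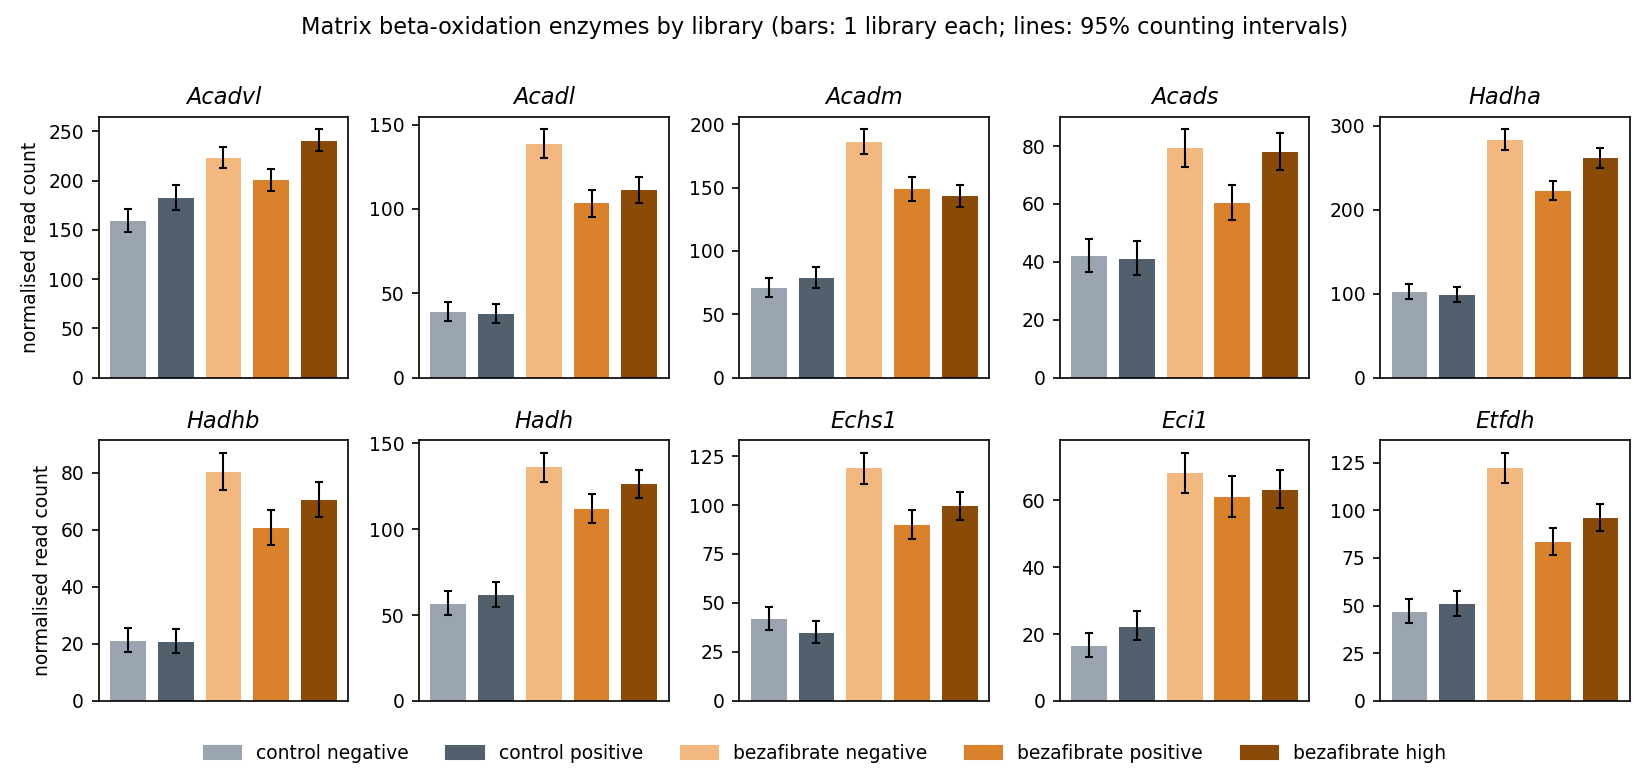
Normalised read count (vertical axis) of the 10 matrix enzymes in the 5 libraries, 1 bar per library, with 95% counting intervals as lines. For each gene the 3 bezafibrate bars stand above the 2 control bars on the deposited scale, most narrowly for Acadvl (200.3 against 182), while relative to albumin 7 of 10 members were lower in bezafibrate negative than in control negative, on a scale where the median of all genes was -1.45 (log2).

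Among the acyl-CoA dehydrogenases, Acadl, the long-chain enzyme (chromosome 1, 66830839 to 66863277), had the widest contrast between treatments. Its values were 38.8, 37.5, 138.5, 103.2 and 111.0. Control libraries were close to each other and far below the bezafibrate libraries, and its ratio of bezafibrate to control was 3.57 in the negative gates (95% counting interval 3.05 to 4.19) and 2.75 in the positive gates (2.33 to 3.27). Acadm, the medium-chain enzyme (chromosome 3, 153922357 to 153944632), had 71.0, 78.7, 186.1, 148.9 and 143.1, again without overlap. Its ratios were 2.62 (2.33 to 2.96) and 1.89 (1.68 to 2.14). Acads, the short-chain enzyme (chromosome 5, 115110299 to 115119346), had 41.9, 41.0, 79.2, 60.4 and 77.8. The positive gate under bezafibrate was the lowest of its 3 treated libraries, and the ratios were 1.89 (1.61 to 2.23) and 1.47 (1.24 to 1.76).

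Acadvl, the very-long-chain enzyme (chromosome 11, 70010183 to 70015411), was the member with the smallest contrast. Its values were 159.1, 182.4, 222.9, 200.3 and 240.6, and the ratios were 1.40 (1.29 to 1.53) and 1.10 (1.01 to 1.20). Control positive and bezafibrate positive, its closest pair across treatments, differed by less than the 2 control libraries did. The annotated span of Acadvl overlaps the opposite-strand gene Dvl2 by 2119 bases. Dvl2 had at most 9.70 in any library, so its own listed signal was small beside that of Acadvl.

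The treatment ratios differed along this family beyond counting error, in the order Acadl, Acadm, Acads and Acadvl in both pairs of gates. In the negative gates the ratio of Acadvl was 0.392 times that of Acadl (0.329 to 0.468), and in the positive gates 0.399 times (0.331 to 0.482). Acadl stood above Acadm by 1.36 times (1.12 to 1.66) and 1.45 times (1.18 to 1.79). Acadm stood above Acads by 1.39 times (1.14 to 1.69) and 1.28 times (1.04 to 1.59). Such comparisons of genes within a library pair do not depend on the scaling. They have no replicate check either.

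The trifunctional protein is built of alpha subunits, with hydratase and hydroxyacyl dehydrogenase activity, and beta subunits, with thiolase activity. Hadha (chromosome 5, 30118304 to 30155162) had 102.5, 98.7, 283.3, 222.4 and 261.0, and Hadhb (chromosome 5, 30155248 to 30184593) had 21.1, 20.7, 80.4, 60.5 and 70.4. In each gene the control libraries were nearly level and the treated libraries stood in the order negative, high, positive. Hadha was 2.76-fold (2.51 to 3.05) and 2.25-fold higher (2.03 to 2.51) in bezafibrate than in control, in the negative and positive gates. Hadhb was 3.80-fold (3.08 to 4.73) and 2.92-fold higher (2.33 to 3.70).

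The 2 subunit genes, which flank the spacer printed above, were not matched in size of difference. Hadhb reads per Hadha read were 0.206 (0.165 to 0.256) and 0.210 (0.166 to 0.262) in control negative and positive. In the treated libraries they were 0.284 (0.259 to 0.311) for the negative gate, 0.272 (0.242 to 0.305) for the positive and 0.270 (0.244 to 0.297) for the high gate. The ratio of Hadhb between treatments was 1.37 times that of Hadha in the negative gates (1.09 to 1.73) and 1.30 times in the positive gates (1.01 to 1.66). Between gates no such gap was seen: under bezafibrate, positive against negative, the ratio of ratios was 0.959 (0.830 to 1.11), and high against positive it was 0.990 (0.854 to 1.15). Differences in this proportion among the 3 treated libraries were within counting error.

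Echs1, the short-chain enoyl-CoA hydratase (chromosome 7, 140105710 to 140116476), had 41.9, 34.9, 118.6, 89.8 and 99.3. It was 2.83-fold (2.43 to 3.31) and 2.57-fold higher (2.16 to 3.08) in the bezafibrate libraries. Its span overlaps the opposite-strand gene Paox by 678 bases, and Paox had 13.5 to 15.3 in the 5 libraries. Hadh (chromosome 3, 131233419 to 131272101) had 56.7, 61.4, 135.8, 111.9 and 126.0. The treated libraries stood above the controls, with ratios of 2.40 (2.10 to 2.75) and 1.82 (1.59 to 2.10).

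Eci1, an isomerase needed for unsaturated fatty acids (chromosome 17, 24426641 to 24439348), had 16.4, 22.2, 68.1, 61.0 and 63.2. It had the fewest reads of the 10 in control negative, 80, and the widest ratio of the 10 in the negative gates, 4.15 (3.27 to 5.32). The ratio in the positive gates was 2.75 (2.21 to 3.45). Etfdh (chromosome 3, 79603788 to 79629500) had 46.8, 50.7, 122.0, 83.2 and 96.1. Among treated libraries its negative gate was clearly the highest. The ratios were 2.61 (2.25 to 3.03) and 1.64 (1.41 to 1.92).

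The median difference of the 10 genes between bezafibrate and control was 1.42 on the log2 scale in the negative gates and 1.04 in the positive gates. Over all analysed genes the medians were 0.02 and 0.004. At least 2-fold higher were 8 of 10 in the negative gates, where 10.2% of all analysed genes were, and 5 of 10 in the positive gates, against 4.94% of all. The counting interval lay above 1 for 10 of 10 in each pair of gates, against 32.3% and 25.9% of all genes. Below 2-fold in the negative gates were Acadvl and Acads. In the positive gates Acadm, Hadh and Etfdh were below it as well. Across all genes the split was 919 higher and 526 lower in the negative gates, which became 1431 and 270 when scaled by column totals and 549 and 1050 with totals that leave out Rn45s. In the positive gates 443 and 261 became 812 and 134 by column totals and 336 and 364 without Rn45s. With the scalings by totals and by size factors the members' medians lay between 1.16 and 1.65 and between 0.92 and 1.24.

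**Figure D2:**
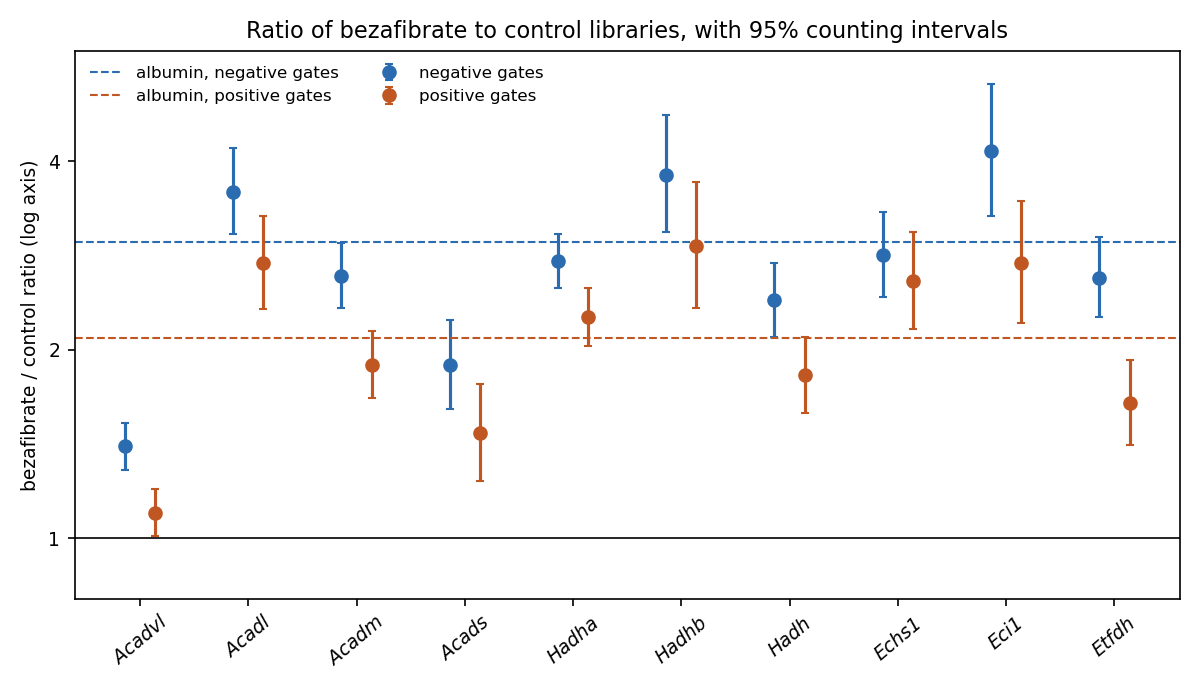
Ratio of bezafibrate to control (vertical, log axis) for each member in the negative gates (blue) and the positive gates (orange), with 95% counting intervals. The solid line marks 1 and the dashed lines the ratio of albumin. On the deposited scale all points lie above 1, from 1.10 for Acadvl in the positive gates to 4.15 for Eci1 in the negative gates, and relative to albumin 3 of 10 and 5 of 10 lie above its line, as 3.50% and 5.23% of all genes do.

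RNA make-up moved with treatment in the same libraries. Rn45s had 407070 and 379099 normalised read counts in control negative and positive and 99961, 174815 and 123019 in the negative, positive and high gates of treated mice. Albumin was 2.97-fold higher in bezafibrate than in control in the negative gates and 2.09-fold in the positive gates. It had the highest ratio of the 12 hepatocyte markers in the negative gates, where 10 were above 1 and 2 below, and Hnf4a the lowest at 0.618. In the positive gates 8 were above 1 and 4 below, from 0.680 for Hnf4a to 2.47 for Cyp2f2. Relative to albumin the members' median difference was -0.14 in the negative gates and -0.02 in the positive gates, with 3 and 5 of 10 above 0. This scale moves all genes alike: their medians on it were -1.45 and -1.01, with 3.50% and 5.23% above 0. Acadl, Hadhb and Eci1 were the 3 above albumin in the negative gates, at 1.20, 1.28 and 1.40 times its ratio, and Hadha (1.08) and Echs1 (1.23) joined them in the positive gates. Acadvl was lowest, at 0.472 and 0.526 times. Their summed value was 2.45% and 2.72% of that of albumin in the controls and 1.99%, 2.37% and 2.36% in the treated libraries. The part of RNA make-up in the treatment difference was not tested.

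A model with additive gate and treatment terms was fitted to the 4 negative and positive libraries. Its calls, whose error is the gate by treatment difference and not a spread between replicates, put 9 of 10 members higher with bezafibrate by limma with Benjamini-Hochberg adjustment. It called 24.5% of the 8973 genes higher (2196) and 1868 lower, and scaled by column totals 3209 higher and 1045 lower. The quasi-likelihood test of edgeR on the recovered reads gave the same 9 members, with 2162 genes (24.1%) higher and 1944 lower. Acadvl was the member not called in either, with a fitted log2 difference of 0.31 by limma, and it was called when values were scaled by column totals.

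Between the gates of control mice the members were mixed. In the positive library 5 were above 0 and 5 below, where 52.1% and 47.8% of all genes were, and the median difference was 0.04. Acadvl was 1.15-fold higher in the positive gate (1.04 to 1.27), the only member whose counting interval left out 1; 4.93% of all genes had an interval above 1. Eci1 was 1.35-fold (0.99965 to 1.83), from 103 against 80 reads. Echs1 was 0.834-fold (0.674 to 1.03), and the other 7 members lay between 0.964-fold and 1.11-fold. With these reads the difference of Eci1 could not be told from counting error.

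Between the gates of bezafibrate mice all 10 members were lower in the positive than in the negative library, where 51.6% of all genes were, though relative to albumin all 10 were higher, as were 96.6% of all genes (medians 0.21 and 0.52). The median difference was -0.37, with -0.01 over all genes, and the counting interval lay below 1 for 9 of 10 against 18.6% of all. Etfdh was 0.682-fold (0.612 to 0.760) and Acadl 0.745-fold (0.675 to 0.823), the lowest ratios. Acadvl at 0.899-fold (0.835 to 0.967) and Eci1 at 0.895-fold (0.783 to 1.02) were the nearest to 1. None of the 10 reached 1.5-fold lower, as 2.64% of all genes did. Beside these values, Rn45s was 1.75-fold higher in the positive library and albumin 0.668-fold. With totals that leave out Rn45s the members' median was -0.22 and 0 of 10 were above 0, with Acadvl at -0.01. On that scale 5964 of the 8973 genes were above 0 in place of 4343, and their median was 0.13. The part of RNA make-up in this gate difference was not tested.

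The high gate stood between the other 2 for most members. Against the positive gate 9 of 10 were higher, where 49.9% of all genes were, with a median of 0.19 against -0.0007 over all genes. The counting interval lay above 1 for 6 of 10, against 8.21% of all genes. Acads was 1.29-fold higher (1.13 to 1.47), Acadvl 1.20-fold (1.12 to 1.29), Hadha 1.17-fold (1.10 to 1.26), Hadhb 1.16-fold (1.02 to 1.33), Etfdh 1.15-fold (1.03 to 1.29) and Hadh 1.13-fold (1.02 to 1.24). Acadm was the member on the other side, at 0.961-fold (0.880 to 1.05). Relative to albumin, which was 1.13-fold higher in the high gate, the median was 0.011 and 5 of 10 were above 0, with -0.17 and 19.1% over all genes.

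Against the negative gate, 9 of 10 members were lower in the high gate, where 53.0% of all genes were, with a median of -0.15. Relative to albumin all 10 were higher, as were 91.1% of all genes (medians 0.25 and 0.36). On the deposited scale 6 of 10 had a counting interval below 1, against 16.9% of all genes. Acadm was lowest at 0.769-fold (0.710 to 0.833), followed by Etfdh at 0.788-fold (0.713 to 0.869) and Acadl at 0.801-fold (0.731 to 0.879). Acadvl was 1.08-fold higher (1.01 to 1.15), the 1 member with an interval above 1, against 12.2% of all genes. Acads differed by less than counting error at 0.983-fold (0.875 to 1.10). With totals that leave out Rn45s, 4 of 10 were above 0 in place of 1, and 5739 of the 8973 genes in place of 4214. Acadm and Acads, neighbours in chain length, differed here: from positive to high the ratio of Acadm was 0.745 times that of Acads (0.638 to 0.871). The comparisons of the high gate with the other gates share the high library, so they are not separate observations.

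**Figure D3:**
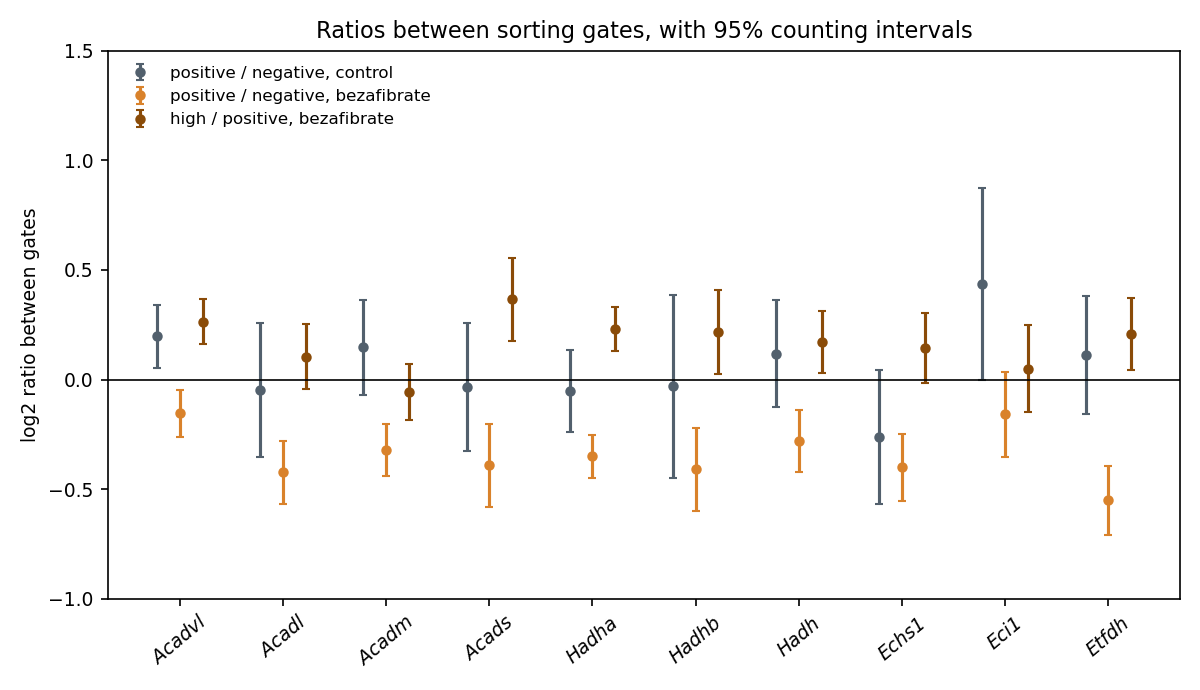
Log2 ratio between sorting gates (vertical axis) for each member, with 95% counting intervals: positive over negative in control mice (grey), positive over negative in bezafibrate mice (orange) and high over positive in bezafibrate mice (brown). Orange points lie below 0 for 10 of 10 members and brown points above 0 for 9 of 10 on the deposited scale, while relative to albumin, where the medians of all genes are 0.52 and -0.17, 10 of 10 and 5 of 10 are above 0.

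Subtracting the gate difference of control mice from that of bezafibrate mice gave a value below 0 for 10 of 10 members, as it did for 53.1% of all genes, with a median of -0.37 against -0.03 over all; relative to albumin the medians were 0.13 and 0.44. For 8 of 10 the counting interval of the ratio of ratios lay below 1, against 13.6% of all genes. Etfdh had the lowest, 0.630 (0.510 to 0.779), then Eci1 at 0.662 (0.481 to 0.913) and Acadm at 0.723 (0.610 to 0.855). Hadhb at 0.769 (0.567 to 1.04) and Echs1 at 0.908 (0.720 to 1.14) had intervals that held 1. With 1 library in each of the 4 groups this difference has no test.

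Levels between genes were compared per kilobase. Acadvl was the highest and Hadhb the lowest of the 10 in each of the 5 libraries, whichever of 3 lengths was used: merged exons, the longest annotated transcript or the principal transcript by APPRIS. By principal transcript, normalised read counts per kilobase ran from 73.4 to 111 for Acadvl and from 10.1 to 39.2 for Hadhb. Acadm had rank 2 or 3 by that length, at 34.7 to 90.9. Hadha lay between 24.6 and 70.5 and Etfdh between 19.7 and 51.3. The middle of the order depended on the length: Echs1 had rank 9 by merged exons and ranks 3 to 5 by principal transcript. By principal transcript Hadhb stood at 0.405 and 0.411 of Hadha per kilobase in the controls and at 0.557, 0.534 and 0.529 in the treated libraries.

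Other genes of the pathway or linked to it, from a list fixed with the design, were mostly higher with bezafibrate, 13 of 16 in each pair of gates. Of all analysed genes 51.4% and 50.4% were above 0 in the negative and positive gates, and, as given above, 10.2% and 4.94% were at least 2-fold higher, the shares to hold beside the counts of each list below. Of 17 other enzymes 16 were analysed (Acad12 was below the filter on low values), with medians of 0.56 and 0.57 in the negative and positive gates, and 6 and 4 at least 2-fold higher. Hsd17b10 had the highest ratio of these in the negative gates, 4.56-fold, with 1.90-fold in the positive gates. Nudt7, the most abundant of them, was 0.814-fold and 0.666-fold. Acaa2, the thiolase that completes the matrix cycle, was 2.48-fold and 2.13-fold higher, and Decr1, the dienoyl-CoA reductase for unsaturated chains, 2.84-fold and 2.31-fold. Eci2, a second isomerase, ran against Eci1 with values of 99.4, 113.8, 72.8, 87.2 and 79.4, so its controls were the higher libraries. Acad9, which also serves complex I assembly, was 0.790-fold and 0.939-fold. Etfa and Etfb, the subunits of the flavoprotein that feeds Etfdh, were unlike each other: Etfa was 2.34-fold and 2.63-fold higher, and Etfb 1.18-fold and 1.41-fold, beside 2.61-fold and 1.64-fold for Etfdh.

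The genes of the steps before the matrix had medians nearer 0. Of the 7 genes of the carnitine shuttle, 1 and 0 were at least 2-fold higher, with medians of 0.10 and 0.03. Cpt2 on the inner membrane was 2.73-fold and 1.57-fold, the carrier Slc25a20 1.86-fold and 1.53-fold, and Cpt1a at the outer membrane 1.069-fold and 1.004-fold. Cpt1b was the lowest of the 7, at 0.475-fold and 0.731-fold, and 5 and 6 were above 0. Of 8 genes of fatty acid activation 7 were in the table and analysed, with medians of 0.44 and -0.07 and 1 and 0 at least 2-fold higher. Acsl1, the most abundant of them, was 0.765-fold and 0.645-fold, and Acsl5 was 2.50-fold and 1.78-fold.

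A list of enzymes mainly of branched-chain acid breakdown, some of them acyl-CoA dehydrogenases, had medians of 1.09 and 0.72 over 11 genes. At least 2-fold higher were 6 and 3 of them. Ivd, an acyl-CoA dehydrogenase of leucine breakdown, was 2.59-fold and 1.79-fold higher, and Acadsb, a short, branched-chain acyl-CoA dehydrogenase, 2.16-fold and 1.66-fold. The 14 genes of quinone-linked dehydrogenases and complexes II and III had medians of 1.17 and 0.86, with 9 and 6 at least 2-fold higher. Sdha of complex II was 2.43-fold and 2.08-fold, while Gpd2, which also feeds ubiquinone, was 0.701-fold and 0.567-fold. Of 16 genes of peroxisomal beta-oxidation 15 were analysed, with medians of 0.75 and 0.32 and 5 and 2 at least 2-fold higher. Above 0 were 13 and 12 of them, and Acaa1a, the lowest in the negative gates, was 0.722-fold and 0.987-fold. Ehhadh, the peroxisomal bifunctional enzyme, was 24.9-fold and 14.5-fold higher. Uqcrb, a subunit of complex III from the preceding list, was 10.7-fold and 5.199-fold higher, from values of 2.67 and 3.88 in the controls. Both lay above the range of the matrix enzymes. The 13 regulators analysed, of 15 listed, had medians of 0.12 and -0.08, with 7 above and 6 below 0 in the negative gates and 6 and 7 in the positive gates. At least 2-fold higher were 1 and 2 of them. Ppara, the gene of the receptor itself, was 2.14-fold and 2.27-fold. The coactivator genes went opposite ways: Ppargc1a was 0.563-fold and 0.583-fold, and Ppargc1b 1.59-fold and 2.68-fold. These are ratios on the deposited scale, and the albumin ratios of 2.97 and 2.09 apply beside them too. No test of the differences between lists was made.

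**Figure D4:**
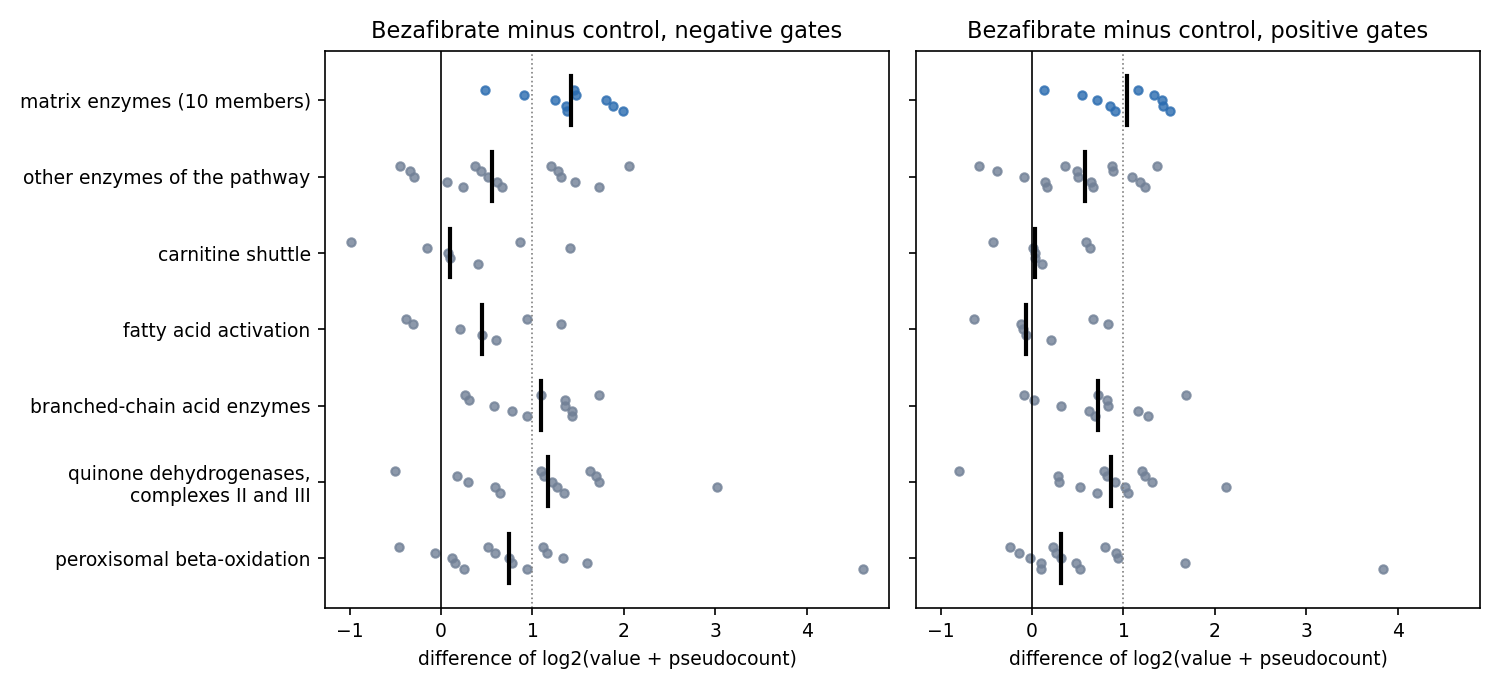
Difference of log2(value + pseudocount) between bezafibrate and control (horizontal axis) for the genes of each list, 1 point per gene, in the negative gates (left) and positive gates (right), on the deposited scale. Black bars are list medians, 1.42 and 1.04 for the 10 matrix enzymes, and the dotted line marks 2-fold; albumin would stand at 1.57 and 1.06.

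The genes closest to the members' mean profile over the 5 libraries, by Euclidean distance of centred log2 values among 2340 genes with a mean of at least 50, were Msrb1, Apof, Apoh, Hsd3b5 and Abat. Msrb1, a methionine sulfoxide reductase, was nearest at a distance of 0.038, with 53.2, 55.8, 145.4, 115.5 and 128.4. Apof and Apoh, both secreted plasma proteins, followed at 0.057 and 0.079. None of the 5 is an enzyme of beta-oxidation. Among the members Hadh (0.165) and Hadha (0.169) were nearest to the mean they contribute to, where they would have ranked 25 and 28 among the candidates. Acadvl, at 0.935, was the farthest.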

How the data were processed

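Per the labels' protocols, RNA came from a kit named for FFPE material, rRNA was removed, and strand-specific libraries were read from both ends. The submitters' processing notes list Trimmomatic 0.36, RSEM, Bowtie2, edgeR and build mm10. Tool roles, the annotation and the use of strand in counting are not stated there. The authors deposited a normalised gene-level signal for 13966 symbols. Dividing a column by its least nonzero value gave whole numbers for 100% of values, within 0.001 reads, so the deposited signal is read counts divided by 1 factor per library. Recovered depth was 5056884 to 7146578 reads.

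Log2 differences used values plus 1.0035 normalised read counts (the pseudocount, scaled to the mean column total). The 8973 genes with a mean of at least 5.02 (5 pseudocounts) were analysed, all 10 members among them. Ratios of deposited values carry 95% intervals (exact, Clopper-Pearson) computed on the recovered reads, which cover counting error only. Intervals for a ratio of ratios use Poisson errors on the log scale. Additive gate and treatment terms were fitted to 4 libraries by limma 3.58.1 in R 4.3.3 (trended prior, Benjamini-Hochberg adjustment, called at 0.05) and with the quasi-likelihood test of edgeR 4.0.16 on recovered reads. The model has 1 residual degree of freedom and its error is the gate by treatment difference, so it is no test between replicates. Other steps ran in Python 3.11.15 (scipy 1.17.1, pandas 2.3.3, numpy 2.4.6). Gene coordinates and lengths are from GENCODE for GRCm38 (mm10).

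All 10 members are named. Of other lists, the genes named are members of lists fixed with the design, and the 5 genes closest in profile came from a distance rule. Members, lists and rules were chosen with earlier results of these data known. A comparison of protein sequences that the design had listed was not made. Alternatives were other scalings, pseudocounts, filters and lengths.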

Additional observations from a re-analysis of the deposited data

Results flagged for a closer look

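For 5 members the positive gate stood above the negative gate in control mice and below it in bezafibrate mice, on the deposited scale. Of all genes 52.1% were above 0 in control and 51.6% below 0 under bezafibrate. The share with both was not counted, so the 5 members have no share of all genes beside them. By column totals 7 of 10 members were above 0 in control, with Acads and Hadhb added at 0.007 each, as were 5408 of all analysed genes. On that scale 0 of 10 were above 0 under bezafibrate. Relative to albumin all 10 members were higher in the bezafibrate positive than negative gate, as were 96.6% of all genes. With 1 library in each group the difference between the 2 gate differences was not tested. On the log2 scale the bezafibrate gate difference minus the control one was -0.35 for Acadvl, -0.46 for Acadm, -0.39 for Hadh, -0.57 for Eci1 and -0.66 for Etfdh. The ratio of positive to negative gate was 1.15 and 0.899 for Acadvl, 1.11 and 0.8004 for Acadm, 1.08 and 0.824 for Hadh, 1.35 and 0.895 for Eci1, and 1.08 and 0.682 for Etfdh, each in control and then bezafibrate mice. In control mice the counting interval left out 1 for Acadvl alone of these 5.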

How the results depend on the processing

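Each group has 1 library, so no spread between mice can be given and no library could be left out. No paired analysis was possible because there is 1 library per group and the labels give no replicate numbers. Counting error limits the weakest member most, Eci1 with 80 reads in control negative. Over the other scalings fixed with the design (column totals, totals without Rn45s, totals without the 100 highest genes, DESeq2 size factors) and pseudocounts of 0.5 and 5, the members' medians kept their sign: 1.16 to 1.65 and 0.92 to 1.24 for bezafibrate against control in the negative and positive gates, -0.37 to -0.22 between bezafibrate gates, 0.16 to 0.24 for high against positive, -0.16 to -0.04 for high against negative and 0.03 to 0.08 between control gates. The negative-gate median was 1.65 by column totals and 1.16 without Rn45s, where the median of all genes shifted by 0.22 and -0.24. In the positive gates all genes shifted by 0.20 and -0.11, between bezafibrate gates by 0.14 and for high against negative by 0.11 without Rn45s. For high against negative, members above 0 numbered 2 by column totals, 4 without Rn45s and 2 without the 100 highest genes, in place of 1. Of all analysed genes 5092, 5739 and 4954 were above 0 in that order, in place of 4214.

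Scaling to albumin was added after seeing the data. It gave medians of -0.14 with 3 members above 0 (negative gates) and -0.017 with 5 above 0 (positive gates). At least 2-fold higher were 0 members in either, where the medians of all genes were -1.45 and -1.01. The share of all genes at 2-fold was not counted on this scale. Between bezafibrate gates the median became 0.21 with 10 above 0, for high against positive 0.011 with 5 above 0, for high against negative 0.25 with 10 above 0, and 9 members were above 0 between control gates. Of all genes 96.6%, 19.1%, 91.1% and 66.9% were above 0 in that order, and 3.50% and 5.23% for treatment (negative and positive gates). The gate by treatment median became 0.13. On this scale the medians of all genes were -1.45 and -1.01 for treatment (negative and positive gates), 0.52, -0.17 and 0.36 for the 3 bezafibrate gate comparisons in that order, 0.08 between control gates and 0.44 for gate by treatment. The cause was not tested.

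In the additive model, genes called lower numbered 1045 by column totals in place of 1868, and genes called higher 1435 with a filter at 20 pseudocounts in place of 2196, where 4937 genes were tested in place of 8973 and the share called was 54.6% in place of 45.3%. Without adjustment 4640 genes passed by limma and 4673 by edgeR.

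Counts over all genes moved more. At least 2-fold higher in the negative gates were 919 genes, against 1431 by column totals, 549 without Rn45s and 574 with a filter at 20; lower were 526, against 270, 1050 and 300, with 317 at a pseudocount of 5 and 809 without a filter. In the positive gates 443 higher became 812, 336 (without Rn45s), 273 (pseudocount 5), 665 (no filter) and 273 (filter at 20), and 261 lower became 134, 364, 138, 421 and 132. Between control gates, intervals above and below 1 went from 442 and 396 to 716 and 262 by column totals, and 257 were below with a filter at 20. Without Rn45s, 1233 and 1666 became 2416 and 856 between bezafibrate gates, with genes below 0 going from 4630 to 3009, and 1097 and 1520 became 2091 and 860 for high against negative. For high against positive, 737 and 695 became 1160 and 385 by column totals.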
